A study of Mus musculus with 47 samples.

Results

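The integrin, collagen and laminin genes of the bulk hypothalamic counts were taken as 1 set by their symbols: integrin alpha and beta subunits (Itga and Itgb followed by a number and letters, without Itgb1bp1), collagen alpha chains (Col, a type number, a and a chain number) and laminin alpha, beta and gamma chains (Lama, Lamb and Lamc followed by a number). This gave 80 of the 14221 genes of the table, of which 22 encode integrin subunits, 44 collagen chains and 11 laminin chains. The other 3 (Itgb1bp2, Itgb3bp and Itgbl1) share only the start of their names with integrins and encode no subunit. All 80 had enough counts to be tested, as had every other gene of the table. Itgal, Itgax, Itgae, Itgb2l, Itgb6 and Col21a1 were not in the table, so the 80 are not the whole families.

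Integrins are cell surface receptors made of an alpha and a beta subunit, and the alpha subunit largely sets which matrix protein is bound. Some read the RGD motif of fibronectin, vitronectin and osteopontin, others bind collagens or laminins, and a group found on white blood cells binds counter-receptors on other cells. On the matrix side, fibrillar collagens form the cables of connective tissue, which in brain lie mainly in the meninges and around larger vessels. Basement membranes are sheets of collagen IV and laminin that line vessels and the outer surface of the brain, where astrocyte endfeet contact them. The genes were therefore read as receptors (22 integrin subunits), fibrillar collagens (11), basement membrane chains (6 of collagen IV and 11 laminins) and all other collagens (27).

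Male ob/ob mice, which lack functional leptin, were labelled as 11 weeks old and were injected once into a brain ventricle (icv) with FGF1 (fibroblast growth factor 1, 3 µg) or with vehicle. Separate mice were killed on each day, with 1 library of hypothalamic mRNA per mouse. The labels gave 10 FGF1-treated and 4 vehicle-treated mice for Day 1, 9 FGF1-treated mice with 7 vehicle-treated mice labelled non-diabetic and 7 labelled diabetic for Day 5, and 5 mice of each treatment for Day 42. The extraction protocol counts 7 vehicle-treated mice for Day 5 where the labels give 14, and the study's methods state that mice that did not become diabetic were left out. What the label non-diabetic means in these mice is not stated, and FGF1 is therefore set against each vehicle group of Day 5 in turn. Vehicle-treated mice of Days 1 and 42 were also labelled non-diabetic, and the study's methods state that vehicle-treated animals were pair-fed. Every group thus lacked leptin, and no lean or uninjected mice were among these samples.

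Library totals ran from 1243280 counts, in FGF1-treated mouse 1 of Day 1, to 47082403, and 5 of the 80 genes had no count in that shallowest library. Levels are given as CPM, counts scaled to a common library size after normalization, with the SD over mice. Each day carried a preparation code of its own, which ties any difference in level between days to the preparation as well. The 9 listed hypothalamic marker genes, Avp, Oxt, Agrp, Hcrt, Pmch, Trh, Sim1, Otp and Hdc, summed to between 385 and 1554 CPM in every mouse. In whole tissue, fewer cells of a type and less RNA per cell cannot be told apart. A gene was counted as changed at an adjusted p under 0.05 with an absolute log2 fold change above 0.5. All adjusted p-values come from edgeR's quasi-likelihood test with Benjamini-Hochberg adjustment over all 14221 genes.

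On Day 1, 28 of the 80 genes rose and 12 fell in FGF1-treated mice. Among all genes 11.5% rose and 8.05% fell, and the median log2 fold change was 0.23 over the 80 genes and 0.01 over all genes. Of all calls 58.8% were higher ones, 65.4% with at least 10 counts required in every library, and 50.8% to 51.2% with DESeq2, with its size factors in edgeR or with quantile normalization and limma. Under those last 3 settings 26 of the 80 genes rose and 13 to 16 fell, beside 17.8% to 19.6% of all genes called in either direction. The receptors moved most often in 1 direction: 11 of 22 integrin subunits rose and 1 fell, with a median log2 fold change of 0.59. Fibrillar collagens were divided, with 4 of 11 higher and 2 lower (median 0.32). Basement membrane chains included 5 of 17 higher and 2 lower (median 0.24), and the other collagens 8 of 27 higher and 5 lower (median 0.11). The 80 genes together made up 0.204% ± 0.0262 of the counts of FGF1-treated mice (SD, n = 10) and 0.141% ± 0.00819 of those of vehicle-treated mice (SD, n = 4).

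Individual mice were also set side by side. On Day 1 the treatments did not overlap for 17 of the 80 genes with FGF1 on the higher side and for 4 with FGF1 on the lower side. Over all genes these shares were 7.56% and 6.81%. The summed level of the 22 integrin subunits ran from 609 to 864 CPM (median 708) with FGF1 and from 384 to 437 CPM (median 393) with vehicle, so that these sums did not overlap. The sum of the fibrillar collagens, 256 to 478 CPM (median 330) against 189 to 230 CPM (median 219), did not overlap either. Without Col5a3 the fibrillar sum ran from 156 to 327 CPM with FGF1 and from 169 to 216 CPM with vehicle, and overlapped. Sums of the basement membrane chains did overlap, at 350 to 566 CPM (median 428) against 315 to 419 CPM (median 360).

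**Figure D1:**
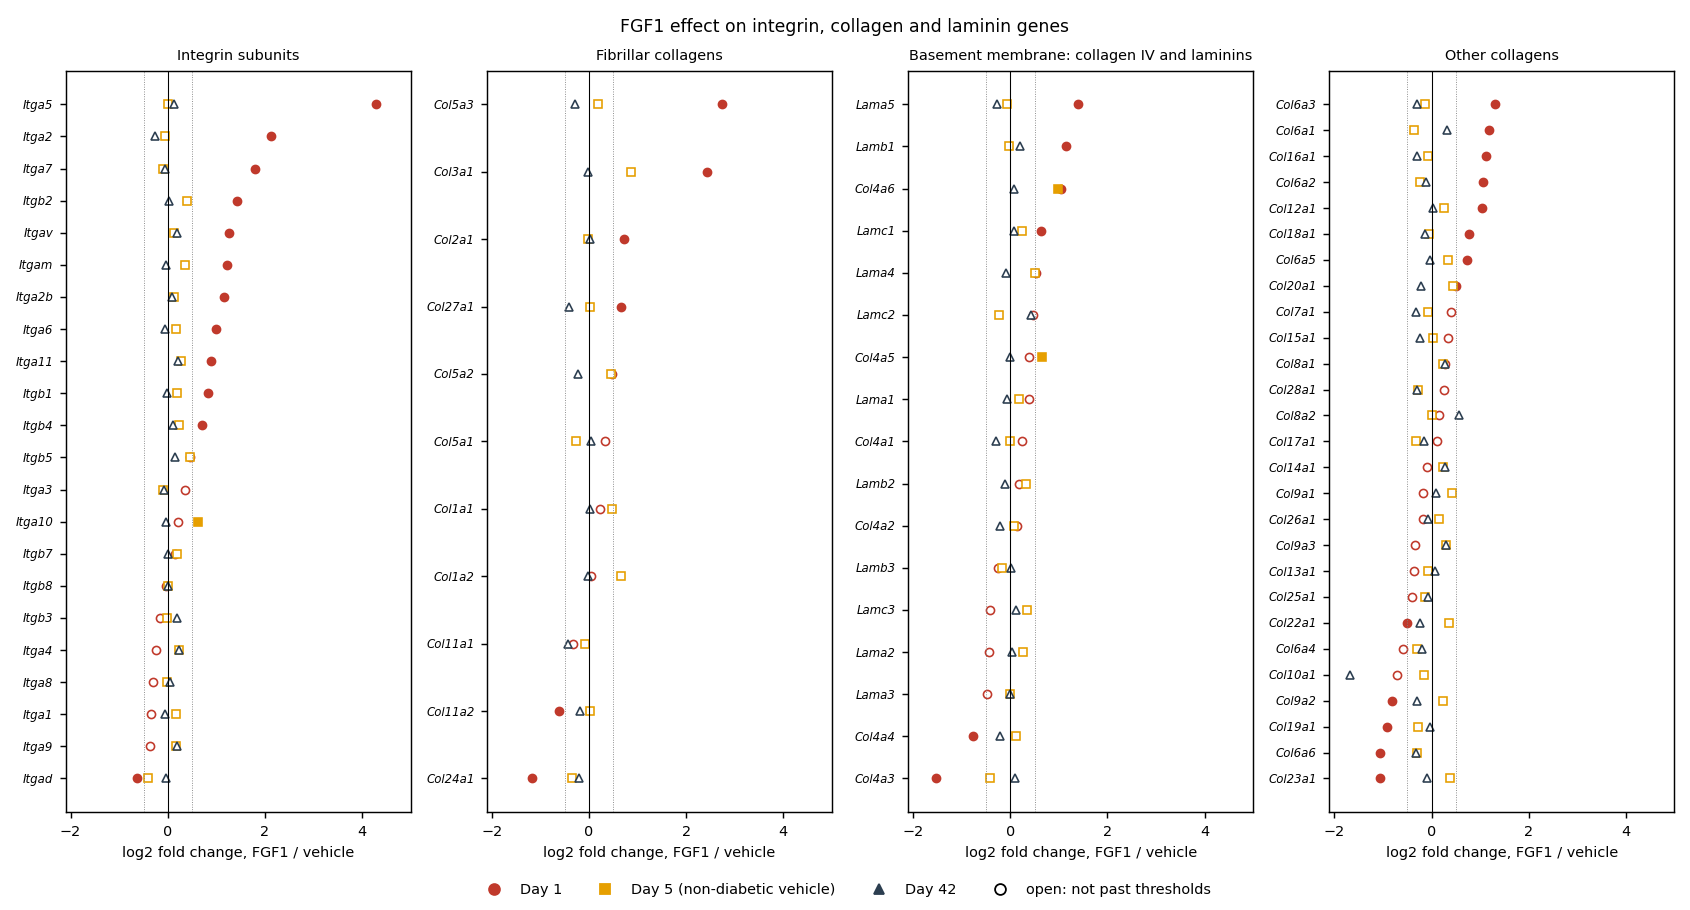
Log2 fold change in FGF1-treated over vehicle-treated mice (horizontal axis) of each of the 77 integrin, collagen and laminin genes, in 1 panel per class; symbols stand for Day 1, Day 5 (non-diabetic vehicle) and Day 42 and are filled where the gene passed the thresholds, and dotted lines mark the fold threshold. On Day 1 the integrin points lie mostly to the right of 0 (median 0.59), and on Day 42 no point is filled.

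Proximal promoters were read for the genes on which the following results turn. The 250 bases before the RefSeq start site (GRCm38.p6) are shown 5′ to 3′ on the gene's strand, with capitals marking a Sp1 box (GGGCGG on either strand). Itga5, Col5a3 and Col3a1 are shown because they had the largest rises among integrins and collagens on Day 1, and Col4a5 and Col4a6 because they were changed on Day 5 against both vehicle groups. Itga5 lies on the minus strand (chr15:103366792-103367041), as do Col5a3 (chr9:20815068-20815317) and Col4a6 (chrX:141474077-141474326), while Col3a1 (chr1:45311288-45311537) and Col4a5 (chrX:141475169-141475418) lie on the plus strand.
Itga5: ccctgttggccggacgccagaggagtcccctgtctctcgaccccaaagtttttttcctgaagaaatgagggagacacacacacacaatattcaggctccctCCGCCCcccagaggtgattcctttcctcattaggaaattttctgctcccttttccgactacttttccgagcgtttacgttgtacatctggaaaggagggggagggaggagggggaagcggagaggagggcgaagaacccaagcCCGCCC
Col5a3: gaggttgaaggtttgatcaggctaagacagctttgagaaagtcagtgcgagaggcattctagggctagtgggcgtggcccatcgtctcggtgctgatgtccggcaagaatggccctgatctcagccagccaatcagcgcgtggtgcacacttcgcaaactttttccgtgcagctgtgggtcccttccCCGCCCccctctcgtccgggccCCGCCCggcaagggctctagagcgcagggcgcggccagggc
Col3a1: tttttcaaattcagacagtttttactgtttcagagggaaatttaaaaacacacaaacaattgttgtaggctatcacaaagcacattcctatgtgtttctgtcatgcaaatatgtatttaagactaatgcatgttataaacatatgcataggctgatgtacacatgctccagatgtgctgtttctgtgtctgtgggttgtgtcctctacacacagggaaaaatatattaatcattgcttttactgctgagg
Col4a5: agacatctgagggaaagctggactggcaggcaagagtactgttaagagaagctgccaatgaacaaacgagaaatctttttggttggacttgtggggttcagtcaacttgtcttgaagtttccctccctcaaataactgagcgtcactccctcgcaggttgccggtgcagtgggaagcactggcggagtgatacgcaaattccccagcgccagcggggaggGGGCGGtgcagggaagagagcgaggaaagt
Col4a6: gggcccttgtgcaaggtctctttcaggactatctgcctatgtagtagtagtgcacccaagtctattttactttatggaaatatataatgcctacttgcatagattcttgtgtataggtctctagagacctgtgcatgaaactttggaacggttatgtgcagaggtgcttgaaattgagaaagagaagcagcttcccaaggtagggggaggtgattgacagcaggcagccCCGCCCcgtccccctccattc

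The Itga5 and Col5a3 windows each held 2 Sp1 boxes, the Col4a5 and Col4a6 windows 1 each, and the Col3a1 window none. A box stood in 30 of the 58 promoters that were found for the 80 genes and in 58.2% of all 11167 promoters. It was present in 12 of the 20 promoters found for genes that rose on Day 1 and in 5 of the 8 found for genes that fell. The AP-1 motif TGANTCA was found only in the Col6a1 promoter among the 58 (4.09% of all), and the ETS motif CCGGAAG only in that of Itga3 (12.8% of all). These are matches of letters in the stretch before the start site whose length is given above, searched on both strands. They are neither bound sites nor causes.

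Among the receptors for RGD ligands, Itga5, the alpha subunit of the main fibronectin receptor, had the largest change of all 80 genes. Its level ran from 34.4 to 111 CPM (median 58.9) in the 10 FGF1-treated mice of Day 1, against 3.35, 2.88, 2.98 and 3.61 CPM in the 4 vehicle-treated mice. The lowest FGF1-treated mouse was thus far above the highest vehicle-treated mouse, a 19.5-fold rise (log2 4.29 ± 0.25 SE, adjusted p = 9.3e-19; exact permutation p = 0.000999, the smallest these group sizes allow). On Day 5 Itga5 stood at 3.56 ± 0.436 CPM (SD, n = 9) with FGF1 and at 3.56 ± 0.787 and 3.38 ± 0.613 CPM (n = 7 each) in the non-diabetic and diabetic vehicle groups. On Day 42 it stood at 3.44 ± 1.48 and 3.11 ± 0.989 CPM (SD, n = 5 each). The high values were therefore seen on Day 1 alone, and the FGF1 effect of Day 1 exceeded that of Day 5 by 4.28 ± 0.33 on the log2 scale (adjusted p = 3.65e-14). The gene spans chr15:103344286-103366763 (GRCm38).

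Itgav, which pairs with several beta subunits to bind vitronectin and osteopontin, ran from 67.5 to 173 CPM (median 110) with FGF1 on Day 1. The 4 vehicle-treated mice were at 44.0, 65.0, 41.7 and 43.1 CPM, all below the lowest FGF1-treated mouse (log2 1.25 ± 0.15, adjusted p = 3.03e-09). Its vehicle level on Day 1 (48.4 ± 11.1 CPM) was below those of Day 5 (70.8 ± 4.61 CPM, non-diabetic) and Day 42 (71.7 ± 12.7 CPM), and day and preparation cannot be told apart in that comparison. Itga2b, the platelet fibrinogen receptor subunit, had 5.70 to 10.3 CPM (median 7.86) with FGF1 and 4.84, 2.26, 3.91 and 3.17 CPM with vehicle (log2 1.16 ± 0.16, adjusted p = 6.87e-08). Itga8, the fourth alpha subunit of this class, did not pass (log2 -0.31 ± 0.21, adjusted p = 0.23).

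Of the 3 laminin-binding alpha subunits, 2 rose. Itga7, known as the laminin receptor subunit of muscle, ran from 34.7 to 69.8 CPM (median 51.1) with FGF1 on Day 1 against 14.0, 9.60, 15.9 and 19.4 CPM with vehicle, a 3.49-fold rise without overlap (log2 1.80 ± 0.16, adjusted p = 2.61e-13). On Days 5 and 42 its group means lay between 16.3 and 23.8 CPM, and no mouse of those days, at up to 26.5 CPM, reached the FGF1 values of Day 1. The diabetic vehicle-treated mice of Day 5, at 19.5 to 26.5 CPM, lay above the vehicle-treated mice of Day 1. Itga6 had 45.9 to 66.6 CPM (median 52.6) with FGF1 and 22.2, 31.4, 29.9 and 24.6 CPM with vehicle on Day 1 (log2 1.00 ± 0.11, adjusted p = 1.7e-10). Its group means on the later days were 44.6 to 51.9 CPM, above the Day 1 vehicle mean of 27.0 CPM. Of the Day 42 mice, 1 vehicle-treated mouse lay at 29.6 CPM, within the range of the Day 1 vehicle mice. Day and preparation cannot be told apart in that comparison. Itga3, the highest of the 3 per kilobase in vehicle-treated mice of Day 1, had 63.0 ± 11.4 against 49.6 ± 12.6 CPM and stayed below the fold threshold (log2 0.35 ± 0.12, adjusted p = 0.0172).

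Of the 4 collagen-binding alpha subunits, Itga2 and Itga11 rose on Day 1. Itga2, a receptor subunit known from platelets and epithelia, was at 1.63 to 10.8 CPM (median 3.72) with FGF1 and at 0.522, 2.40, 0.861 and 0.328 CPM with vehicle. Here 7 of 10 FGF1-treated mice lay above all vehicle-treated mice (log2 2.13 ± 0.36, adjusted p = 3.11e-06). Without vehicle-treated mouse 2 the log2 fold change was 2.95. On Day 5 the means of Itga2 stood between 5.58 and 6.22 CPM in all 3 groups, above most mice of Day 1 whatever their treatment. On Day 42 they stood at 0.801 and 0.995 CPM, and day and preparation cannot be told apart there. Itga11, found on fibroblasts, had 3.67 ± 1.39 against 1.84 ± 0.307 CPM (log2 0.89 ± 0.20, adjusted p = 0.000316). Itga1 had a log2 fold change of -0.35 ± 0.14 (adjusted p = 0.03), short of the fold threshold, and Itga10, a subunit known from cartilage, did not pass on Day 1 (11.7 ± 1.14 against 10.0 ± 0.829 CPM). Reads of Itga10 could be shared with Gm42957, whose exons overlap it on the same strand.

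Among the 7 beta subunits 3 rose, and each pairs with a different set of alpha subunits. Itgb1, the partner of most collagen, laminin and fibronectin receptors, was the most abundant of the 80 genes per kilobase of exon, at 28.6 ± 3.79 CPM per kilobase in vehicle-treated mice of Day 1. It ran from 147 to 286 CPM (median 198) with FGF1 against 106, 138, 117 and 105 CPM with vehicle, without overlap (log2 0.83 ± 0.11, adjusted p = 1.12e-08). Itgb2, the common beta subunit of leukocyte integrins, was at 4.89 to 11.3 CPM (median 8.81) against 4.26, 2.60, 3.00 and 3.15 CPM (log2 1.42 ± 0.18, adjusted p = 8.31e-09). Its partner Itgam, known from microglia and myeloid cells, had 7.35 to 16.7 CPM (median 10.2) against 4.07, 6.18, 3.68 and 4.76 CPM (log2 1.22 ± 0.19, adjusted p = 1.16e-06). All FGF1-treated mice lay above all vehicle-treated mice for both subunits, although exons of Itgam are shared with Gm49368 on the same strand. Itgb4, the laminin receptor subunit of epithelial anchoring junctions, rose by less (log2 0.71 ± 0.20, adjusted p = 0.00339). Itgb5, a partner of Itgav, had a log2 fold change of 0.47 ± 0.11 (adjusted p = 0.000728), just under the fold threshold, and Itgb8 differed by -0.04.

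The other alpha subunits of leukocyte and alpha4-alpha9 type gave smaller or lower values. Itgad was the 1 integrin subunit that fell on Day 1 (1.59 against 2.47 CPM, log2 -0.64 ± 0.25, adjusted p = 0.0354). Itga9 had a log2 fold change of -0.37 ± 0.12 (adjusted p = 0.0113), which does not reach the fold threshold. Beside these receptors, 4 of 9 listed microglial markers rose and 1 fell on Day 1, with a summed level of 222 to 294 CPM with FGF1 and 211 to 242 CPM with vehicle. Of 4 markers of other leukocytes in the table, out of 12 listed, 3 rose, and their sum was 5.70 to 32.9 against 7.47 to 17.2 CPM. No listed gene of either set that is in the table was at 0 throughout a group. Libraries of Day 5 had at most 2 genes at 0 over the whole table, so this does not bear on cell types. The part of such cells in the integrin values was not tested.

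**Figure D2:**
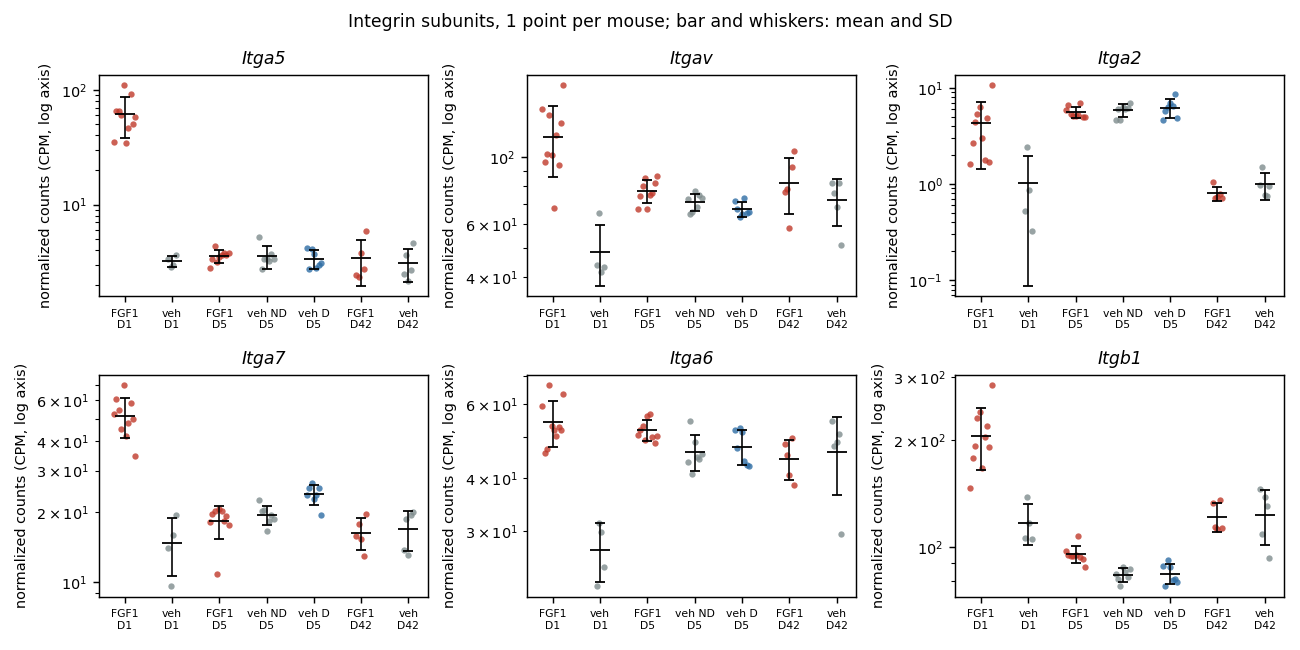
CPM of 6 integrin subunits in every mouse of the 7 groups (D1, D5 and D42 are the days, veh is vehicle, ND non-diabetic and D diabetic) on a log axis; each point is 1 mouse, with the group mean and SD as bar and whiskers. Itga5 is at 34.4 to 111 CPM in FGF1-treated mice of Day 1 and at a mean of 3.11 to 3.56 CPM in every other group.

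Among fibrillar collagens Col5a3 and Col3a1 rose most, while the collagen I chains did not pass. Col5a3, a chain of collagen V, which regulates fibril formation, ran from 66.7 to 190 CPM (median 118) with FGF1 on Day 1 against 25.0, 13.3, 19.5 and 16.9 CPM with vehicle. This 6.68-fold rise was without overlap (log2 2.74 ± 0.22, adjusted p = 3.29e-14). On Day 5 it had 10.7 ± 0.913 CPM with FGF1 against 9.39 ± 1.58 and 8.84 ± 1.20 CPM, and on Day 42 9.01 ± 2.91 against 11.1 ± 5.63 CPM, so that the high values were again those of Day 1. Per kilobase, Col5a3 went from rank 21 of the 80 genes in vehicle-treated mice (2.74 CPM per kilobase) to 18.2 ± 4.95 CPM per kilobase, near the most abundant collagen IV chain, Col4a2 (19.4 ± 3.99). Col3a1, the collagen III chain of elastic connective tissue, was at 4.89 to 90.3 CPM (median 37.2) against 6.76, 12.1, 6.14 and 7.33 CPM, and 9 of 10 FGF1-treated mice lay above all vehicle-treated mice (log2 2.42 ± 0.40, adjusted p = 2.63e-06). The spread among FGF1-treated mice was wide for this gene.

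Col1a1 and Col1a2, which together form collagen I, gave another picture. Col1a2 was at 13.9 to 64.9 CPM (median 27.2) with FGF1 and at 36.1, 45.5, 22.8 and 30.1 CPM with vehicle, and the groups overlapped (log2 0.04 ± 0.26, adjusted p = 0.92). Col1a1 had 7.70 ± 4.42 against 6.87 ± 2.07 CPM (log2 0.23 ± 0.30, adjusted p = 0.56). Col2a1 (log2 0.72 ± 0.19, adjusted p = 0.00175) and Col27a1 (0.66 ± 0.20, adjusted p = 0.00735), both known from cartilage, rose. Col24a1, a minor fibrillar chain, fell from 11.1 ± 2.23 to 5.25 ± 1.67 CPM (log2 -1.17 ± 0.16, adjusted p = 4.48e-08), and Col11a2 fell as well (log2 -0.62 ± 0.20, adjusted p = 0.0108). Col5a1, Col5a2 and Col11a1 did not pass.

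Of 12 listed meningeal fibroblast markers, 4 rose on Day 1 (Aldh1a2, Dcn, Lum and Mgp) and 5 fell (Igf2, Ogn, Slc13a4, Slc22a6 and Slc6a13). Their summed level ran from 81.5 to 490 CPM with FGF1 and from 139 to 270 CPM with vehicle. Of the other cell types listed, 7 of 8 oligodendrocyte markers fell (median log2 -0.73), 1 of 10 astrocyte markers rose and 3 fell, 3 of 7 ependymal and 2 of 6 choroid plexus markers fell, 1 of 7 tanycyte and 1 of 9 hypothalamic markers fell, neither of 2 pituitary markers passed, and none of 10 neuronal markers passed with edgeR. The summed neuronal markers nonetheless ran from 3700 to 4795 CPM with FGF1 and from 4864 to 6012 CPM with vehicle, without overlap. The oligodendrocyte sum ran from 2272 to 4185 CPM with FGF1 and from 3647 to 5339 CPM with vehicle. Of 6 markers of oligodendrocyte precursors 2 fell (summed level 122 to 176 CPM with FGF1 and 173 to 200 CPM with vehicle). The part of such cells in the collagen values was not tested.

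**Figure D3:**
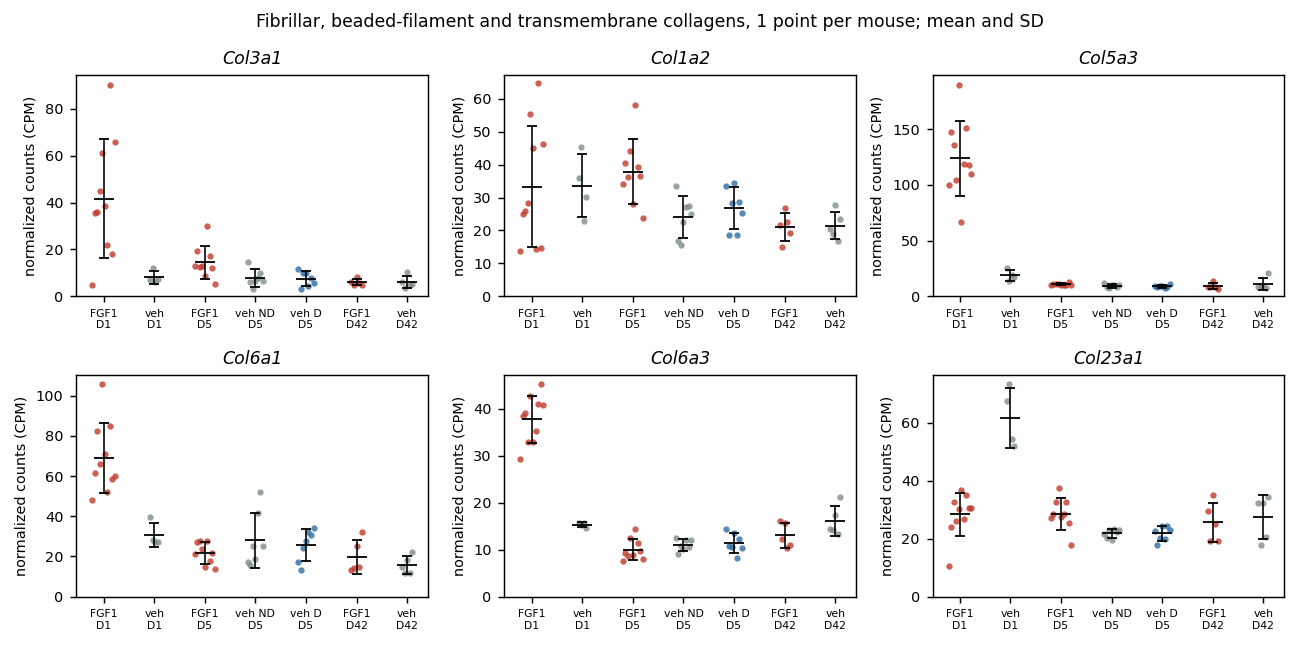
CPM of 6 collagen genes in every mouse of the 7 groups (D1, D5 and D42 are the days, veh is vehicle, ND non-diabetic and D diabetic) on a linear axis; each point is 1 mouse, with the group mean and SD as bar and whiskers. On Day 1 Col5a3 is at 66.7 to 190 CPM with FGF1 and at most 25.0 CPM with vehicle, while the values of Col1a2 overlap.

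The genes of the 6 collagen IV chains of the basement membrane lie in 3 pairs. Each pair sits head to head on opposite strands, with annotated starts 21 bp apart for Col4a1 and Col4a2 (chromosome 8), 72 bp for Col4a3 and Col4a4 (chromosome 1) and 1309 bp for Col4a5 and Col4a6 (chromosome X). Col4a1 and Col4a2 make the network found in nearly all basement membranes and were the abundant pair. On Day 1 Col4a1 had 87.4 ± 20.1 CPM with FGF1 and 88.9, 56.2, 64.4 and 91.2 CPM with vehicle, and Col4a2 had 129 ± 26.4 CPM against 142, 84.0, 90.0 and 151 CPM. Neither passed, with log2 fold changes of 0.24 ± 0.13 (adjusted p = 0.148) and 0.15 ± 0.14 (adjusted p = 0.419).

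The low pair Col4a3 and Col4a4, known from kidney and lung basement membrane, fell. Col4a3 was at 0.476 to 2.44 CPM (median 1.09) with FGF1 against 3.24, 4.80, 2.09 and 1.67 CPM with vehicle (log2 -1.52 ± 0.22, adjusted p = 1.43e-07). Its highest FGF1 value came from the shallowest library and lay within the vehicle values. Col4a4 was at 1.63 to 2.78 CPM (median 1.88) against 3.30, 4.15, 3.65 and 2.98 CPM, without overlap (log2 -0.78 ± 0.18, adjusted p = 0.000495). Exons of Col4a3 also overlap C430014B12Rik.

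Of the X-linked pair, Col4a6 rose on Day 1. It was at 4.07 to 13.5 CPM (median 7.70) with FGF1 and at 4.09, 4.35, 4.24 and 3.28 CPM with vehicle on Day 1 (log2 1.04 ± 0.19, adjusted p = 1.51e-05). Col4a5 was at 6.52 to 25.2 CPM (median 19.1) against 14.5, 16.3, 13.9 and 14.5 CPM, and did not reach the fold threshold on that day (log2 0.38 ± 0.15, adjusted p = 0.0369). The values of both genes overlapped between the groups on Day 1, with the shallowest library giving the lowest Col4a5 value.

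Laminins are trimers of an alpha, a beta and a gamma chain, and chains of each kind rose on Day 1. Lama5, the alpha chain of mature vessels and epithelia, was at 18.7 to 48.4 CPM (median 33.1) with FGF1 against 15.2, 7.68, 12.5 and 16.6 CPM with vehicle (log2 1.39 ± 0.20, adjusted p = 1.43e-07). Its group means were 15.9 to 17.3 CPM on Day 5 and 11.3 to 13.6 CPM on Day 42. Lamb1 had 21.8 ± 6.28 CPM against 9.70, 9.68, 9.96 and 10.9 CPM (log2 1.14 ± 0.16, adjusted p = 1.46e-07). Lamc1, the gamma chain of most laminins, had 56.9 ± 8.91 against 36.7 ± 2.23 CPM (log2 0.64 ± 0.09, adjusted p = 3.41e-08). For these 3 genes every FGF1-treated mouse was above every vehicle-treated mouse. Lama4, an endothelial alpha chain, rose by less (log2 0.54 ± 0.19, adjusted p = 0.0186). Lama2 (log2 -0.45 ± 0.13) and Lama3 (-0.48 ± 0.11) had negative values that stayed within the fold threshold. No laminin fell past the thresholds. Of 10 listed endothelial markers 2 rose (summed level 221 to 288 against 194 to 282 CPM), and of 8 mural markers 3 rose and 1 fell (132 to 217 against 148 to 217 CPM). The part of such cells in these values was not tested.

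**Figure D4:**
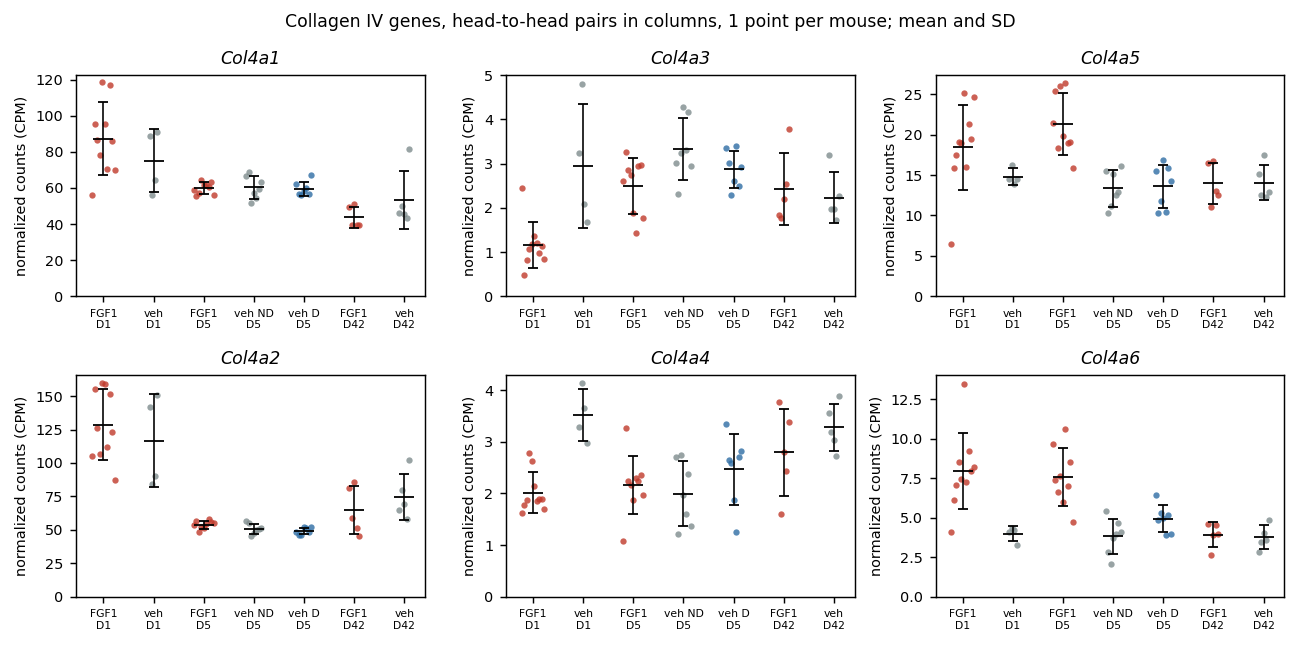
CPM of the 6 collagen IV genes in every mouse of the 7 groups, 1 column of panels for each head-to-head gene pair; each point is 1 mouse, with the group mean and SD as bar and whiskers. Col4a3 and Col4a4 are lower with FGF1 on Day 1, and Col4a5 and Col4a6 are higher with FGF1 on Day 5 (means of 21.3 and 7.58 CPM) than in both vehicle groups.

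Collagen VI, which forms beaded filaments next to basement membranes, had 4 of 6 chains higher and 1 lower on Day 1. Col6a3 was at 29.3 to 45.3 CPM (median 38.7) with FGF1 against 15.7, 15.2, 15.7 and 14.7 CPM with vehicle (log2 1.32 ± 0.14, adjusted p = 9.01e-11). Col6a1 was at 48.1 to 106 CPM (median 63.7) against 39.7, 28.2, 27.1 and 27.3 CPM (log2 1.19 ± 0.26, adjusted p = 0.000191), and Col6a2 at 19.6 to 43.3 CPM (median 27.3) against 17.0, 12.1, 11.8 and 15.8 CPM (log2 1.05 ± 0.22, adjusted p = 8.32e-05). The 3 chains of the classical trimer thus showed no overlap between treatments. Col6a5 rose (log2 0.74 ± 0.19, adjusted p = 0.0017) and Col6a6 fell (-1.06 ± 0.20, adjusted p = 2.15e-05).

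Of the 9 fibril-associated collagens, which decorate the surface of fibrils, 3 rose and 3 fell. Col16a1, the most abundant of them per kilobase on Day 1, had 97.6 ± 26.4 against 45.3 ± 17.1 CPM (log2 1.12 ± 0.21, adjusted p = 3.31e-05), Col12a1 15.0 ± 2.75 against 7.21 ± 0.619 CPM (1.04 ± 0.15, adjusted p = 1.37e-07), and Col20a1 also rose (0.51 ± 0.18, adjusted p = 0.0178). Col19a1 (log2 -0.91 ± 0.19), Col9a2 (-0.81 ± 0.18) and Col22a1 (-0.50 ± 0.17) fell. Col18a1, the precursor of endostatin, rose (log2 0.77 ± 0.22, adjusted p = 0.00377). Among the transmembrane collagens, Col23a1 was at 10.6 to 36.9 CPM (median 30.4) with FGF1 on Day 1 against 67.6, 73.4, 54.3 and 51.9 CPM with vehicle (log2 -1.07 ± 0.15, adjusted p = 1.33e-07). The other 5 groups averaged 21.8 to 28.6 CPM, below the 4 vehicle-treated mice of Day 1. Day and preparation cannot be told apart there, so these levels do not show which Day 1 group departed. Col25a1, the most abundant of this class and found in neurons, had a log2 fold change of -0.39 ± 0.11, within the fold threshold.

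The 3 genes named like integrins are no receptors. Itgbl1, a secreted protein with integrin-like repeats, had 0.421 ± 0.258 CPM with FGF1 and 1.15, 1.81, 1.65 and 1.18 CPM with vehicle on Day 1 (log2 -1.62 ± 0.22, adjusted p = 3.89e-08). It was at 29.0 to 31.4 CPM in the means of the Day 5 groups and at 2.11 and 2.33 CPM on Day 42, and day and preparation cannot be told apart there. Itgb1bp2, a muscle protein, fell (log2 -1.16 ± 0.26, adjusted p = 0.000239), and Itgb3bp did not pass.

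On Day 5, 3 of the 80 genes were higher and none lower in FGF1-treated mice than in non-diabetic vehicle-treated mice, beside 1.31% and 0.232% of all genes. The median log2 fold change was 0.10 over the 80 genes and -0.01 over all genes. Of all calls in this comparison 84.9% were higher ones, and 67.6% with quantile normalization and limma. Against the diabetic vehicle group 6 were higher and none lower, beside 2.36% and 0.499% of all genes, with 82.5% of all calls higher and 65.8% with quantile normalization and limma. Both comparisons use the same 9 FGF1-treated mice. At an unadjusted p under 0.05 edgeR gave 19 of the 80 genes higher and 1 lower against the non-diabetic group, beside 9.56% and 6.95% of all genes. Against the diabetic group it gave 22 higher and 5 lower at that level, beside 12% and 9.77% of all genes, and DESeq2 called none lower in either comparison.

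The X-linked collagen IV pair was past the thresholds against both vehicle groups. Col4a6 was at 4.73 to 10.6 CPM (median 7.35) with FGF1, at 2.06 to 5.43 CPM (median 3.96) in non-diabetic and at 3.87 to 6.40 CPM (median 4.98) in diabetic vehicle-treated mice. Its log2 fold changes were 0.98 ± 0.18 (adjusted p = 0.000207) and 0.61 ± 0.17 (adjusted p = 0.0157), and the values of the groups overlapped slightly. With quantile normalization and limma it did not pass against diabetic vehicle (log2 0.53, adjusted p = 0.128). Col4a5 was at 15.9 to 26.4 CPM (median 19.8) against 10.3 to 16.2 CPM (median 12.9) and 10.3 to 16.8 CPM (median 14.3), with log2 fold changes of 0.66 ± 0.14 (adjusted p = 0.00146) and 0.64 ± 0.14 (adjusted p = 0.00119). On Day 42 both genes had similar means with FGF1 and vehicle (14.0 and 14.1 CPM for Col4a5, 3.92 and 3.76 CPM for Col4a6). Col4a1 and Col4a2 had log2 fold changes between -0.01 and 0.14 on Day 5.

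Among the receptors, Itgb5 was higher with FGF1 in every mouse of Day 5, at 57.6 to 69.8 CPM (median 62.0) against 41.0 to 55.1 CPM (median 43.8) in non-diabetic and 36.3 to 45.2 CPM (median 41.3) in diabetic vehicle-treated mice. It passed against the diabetic group (log2 0.60 ± 0.10, adjusted p = 1.84e-05) and lay just under the fold threshold against the other (0.46 ± 0.10, adjusted p = 0.00182). Itgb1 was at 88.0 to 108 CPM (median 94.2) against 77.4 to 87.8 CPM (median 83.7) in non-diabetic mice, a small difference without overlap (log2 0.19 ± 0.09, adjusted p = 0.26; exact permutation p = 8.74e-05, the smallest these groups allow). That permutation p is unadjusted and follows from the lack of overlap itself. In diabetic vehicle-treated mice Itgb1 was at 77.5 to 92.1 CPM, which overlapped the FGF1 values (log2 0.18 ± 0.09, adjusted p = 0.217). Itgb5 and Itgb1 were the 2 of 80 genes whose FGF1-treated mice all lay above the non-diabetic group, beside 2.38% of all genes, and none lay wholly below, beside 1.55%.

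Itga10 passed against the non-diabetic group alone, at 2.80 to 6.97 CPM (median 3.67) against 1.76 to 3.69 CPM (median 2.78), with overlap (log2 0.63 ± 0.18, adjusted p = 0.0291; 0.43 ± 0.17, adjusted p = 0.114, against diabetic vehicle at 1.74 to 3.90 CPM). With quantile normalization and limma it passed against neither (adjusted p = 0.212 and 0.392). Itgb2 was at 4.98 to 7.95 CPM (median 6.68) with FGF1, 3.34 to 9.76 CPM (median 4.60) in non-diabetic and 3.22 to 5.04 CPM (median 4.16) in diabetic mice (log2 0.66 ± 0.16 against the latter, adjusted p = 0.00422). Itgb7, a leukocyte beta subunit, was at 1.25 to 2.85 CPM (median 2.04), 1.19 to 2.74 CPM (median 1.60) and 0.623 to 1.52 CPM (median 0.968) in the same order (log2 0.91 ± 0.25 against diabetic vehicle, adjusted p = 0.0118; 0.18 against non-diabetic). With quantile normalization and limma the log2 fold change against diabetic vehicle was 2.33. Diabetic differed from non-diabetic vehicle by -0.73 for Itgb7, and by -1.93 with quantile normalization and limma, and passed in neither. Col20a1 was at 2.82 to 5.15 CPM (median 3.84) against 1.25 to 2.85 CPM (median 2.42) in diabetic mice (log2 0.80 ± 0.17, adjusted p = 0.00132). Against non-diabetic vehicle, at 1.61 to 3.46 CPM (median 3.10), it did not pass (0.44 ± 0.17, adjusted p = 0.142).

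Several matrix genes were raised in the means of Day 5 without passing. Col3a1 was at 5.04 to 29.8 CPM (median 12.8) with FGF1 and 2.95 to 14.7 CPM (median 6.71) with non-diabetic vehicle (log2 0.87 ± 0.35, adjusted p = 0.163). Col1a2, which had not differed on Day 1, was at 23.9 to 58.2 CPM (median 36.6) against 15.6 to 33.7 CPM (median 25.0) (log2 0.65 ± 0.24, adjusted p = 0.12). The ranges overlapped for both. Of the 12 meningeal fibroblast markers, 4 rose against the non-diabetic group (Igf2, Islr, Lum and Slc6a13), with a summed level of 95.8 to 453 CPM against 56.2 to 241 CPM, and 1 rose against the diabetic group (78.2 to 275 CPM). Microglial markers rose in 5 of 9 against the diabetic group (285 to 343 against 215 to 246 CPM) and in none against the non-diabetic group (231 to 348 CPM). Against each vehicle group, 3 of 6 markers of oligodendrocyte precursors, 3 of 8 of oligodendrocytes and 2 of 10 of astrocytes rose and none fell. The summed level of the precursor markers was 342 to 436 CPM with FGF1, 226 to 250 CPM in non-diabetic and 221 to 247 CPM in diabetic vehicle-treated mice. In the same order of groups, the endothelial sum was 276 to 351, 246 to 296 and 266 to 306 CPM. That of other leukocytes was 13.8 to 27.2, 10.7 to 17.3 and 10.6 to 17.8 CPM. The ependymal sum was 58.8 to 76.9, 50.2 to 67.2 and 39.9 to 60.8 CPM. The neuronal sum, lower in the mean with FGF1, was 2910 to 3561, 3560 to 3700 and 3327 to 3933 CPM. The part of these cell types in the Day 5 values of integrins and collagens was not tested.

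Diabetic and non-diabetic vehicle-treated mice of Day 5 were compared with each other as a further check of the controls. None of the 80 genes passed with edgeR, with DESeq2 or with limma after quantile normalization, beside 0% of all genes. At an unadjusted p under 0.05 edgeR gave 1 gene higher and 1 lower, Itga7 (log2 0.29 ± 0.14) and Itgb7 (-0.73 ± 0.27, unadjusted p = 0.00951). Over all genes 193, or 1.36%, reached that level. Col4a6 came next with 0.37 ± 0.19.

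Day 42 gave no gene past the thresholds among the 80 with edgeR, DESeq2 or limma after quantile normalization, beside 0% of all genes. The median log2 fold change was -0.03 over the 80 and -0.01 over all genes, and at an unadjusted p under 0.05 edgeR gave 1 gene higher and 3 lower, beside 776 of all genes (5.46%). The summed integrin level ran from 456 to 548 CPM with FGF1 and from 401 to 550 CPM with vehicle. Col10a1, a network collagen of growth cartilage, had the smallest unadjusted p, at 0.127, 0.111, 0.115, 0.0839 and 0.0555 CPM against 0.334, 0.587, 0.225, 0.335 and 0.282 CPM. All FGF1 values lay below all vehicle values, but they rest on 1 to 5 counts against 9 to 14 (log2 -1.67 ± 0.36, adjusted p = 0.27; exact permutation p = 0.00794). With quantile normalization and limma the log2 fold change of Col10a1 was -0.72. Without FGF1-treated mouse 1, Col10a1 and Col11a1 passed, beside 0.218% of all genes. Col11a1 had 51.0 ± 18.7 against 69.4 ± 14.0 CPM (log2 -0.44 ± 0.14, adjusted p = 0.452) and Col8a2 8.06 ± 5.00 against 5.38 ± 1.83 CPM (0.56 ± 0.24, adjusted p = 0.796).

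The FGF1 effects of the days were then tested against each other in 1 model. For 20 of the 80 genes the log2 effect was higher on Day 1 than on Day 5 (non-diabetic vehicle) and for 12 lower, beside 8.52% and 7.28% of all genes. Receptors made up 9 of the 20 and 2 of the 12, fibrillar collagens 3 and 1, basement membrane chains 2 and 4. After Itga5, the largest positive differences were those of Col5a3 (2.55, adjusted p = 1.15e-09), Itga2 (2.20, adjusted p = 0.000163) and Itga7 (1.89, adjusted p = 2.19e-10), and the largest negative ones those of Itgbl1 (-1.72, adjusted p = 9.38e-07), Col23a1 (-1.45, adjusted p = 6.66e-07) and Col4a3 (-1.11, adjusted p = 0.00519). Col4a6 had nearly the same effect on both days (difference 0.06 ± 0.26, adjusted p = 0.895), as the 1 gene past the thresholds on Day 1 and on Day 5 against non-diabetic vehicle. Between Day 5 and Day 42 no difference passed with edgeR or DESeq2, beside 0.485% and 0.232% of all genes, and at an unadjusted p under 0.05 edgeR gave 10 of the 80 genes higher on Day 5 and 0 lower, beside 5.34% and 4.64% of all genes.

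**Figure D5:**
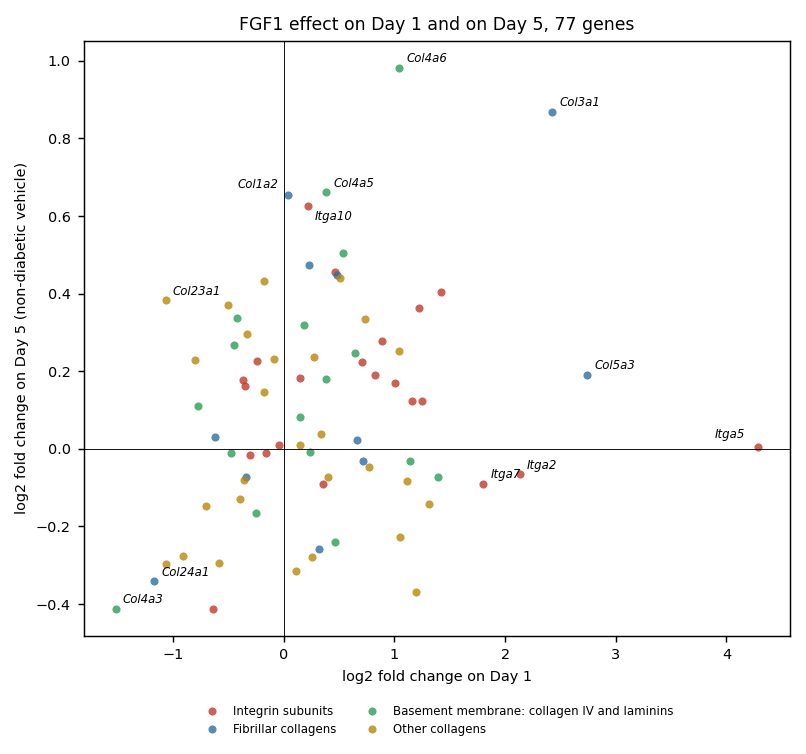
Log2 fold change with FGF1 on Day 1 (horizontal) against that on Day 5 relative to non-diabetic vehicle (vertical) for each of the 77 integrin, collagen and laminin genes, coloured by class, with 1 point per gene. Itga5 lies at 4.29 on the Day 1 axis and 0.00 on the Day 5 axis, and Col4a6 at 1.04 and 0.98.

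The partners of these genes were read from further lists. Of 13 basement membrane linkers 5 rose on Day 1 and none fell (median log2 0.43), while their summed level ran from 2861 to 3426 CPM with FGF1 and, higher but for a slight overlap, from 3423 to 3739 CPM with vehicle. Most of that sum was Sparc, with 2585 ± 152 against 3106 ± 138 CPM (log2 -0.26, short of the fold threshold). The genes that rose included Nid1 (log2 1.47), which joins laminin to collagen IV, Hspg2 (1.23), the perlecan core protein, Fbln2 (1.19) and Nid2 (1.01). Of 16 glycoprotein ligands of integrins 7 rose and 4 fell (median 0.61), and their summed level ran from 528 to 2744 CPM with FGF1 and from 428 to 592 CPM with vehicle. Fn1, fibronectin and the ligand of the Itga5 receptor, had 179 ± 94.3 against 62.3 ± 9.34 CPM (log2 1.55 ± 0.31). Spp1, osteopontin, had 913 ± 666 against 25.4 ± 5.79 CPM (log2 5.18 ± 0.63). Tnc, tenascin-C, had 72.1 ± 45.9 against 6.38 ± 0.945 CPM (log2 3.54 ± 0.37), and Emilin1 rose as well (log2 2.09). The FGF1-treated mice varied widely in these 3 genes. Fn1 thus rose beside its receptor subunit Itga5 in these mice.

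Of 24 intracellular adaptors, which link integrin tails to actin, 7 rose and 2 fell (median 0.33), with Fermt3 (log2 1.05), Actn4 (0.95), Zyx (0.93) and Ptk2b (0.89) highest. Of 24 collagen processing genes 9 rose and 2 fell (median 0.30), led by the crosslinking enzyme Loxl1 (2.23), the collagen chaperone Serpinh1 (2.08), the propeptide-cleaving Bmp1 (1.69) and the lysyl hydroxylase Plod3 (1.31). Of 14 other matrix receptors 6 rose and 1 fell (median 0.36), with Cd44 (2.88), the hyaluronan receptor, and the syndecans Sdc1 (2.70) and Sdc4 (1.27) foremost. On Day 5 against non-diabetic vehicle these lists, of 13, 16, 24, 24 and 14 genes, held 0, 2, 2, 1 and 1 that rose, in the order given. Over all genes 1.31% rose. Emilin1 (1.06), Lims2 (1.04) and Cd44 (0.64) were among the list genes that rose. On Day 42 none of their genes passed with edgeR. At an unadjusted p under 0.05 the counts were 1, 1, 3, 0 and 0 higher and 0, 0, 0, 1 and 1 lower in that order. Over all genes 5.46% reached that level in either direction, and no result about these lists is drawn from the counts.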

How the data were processed

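Hypothalamic mRNA was sequenced from 47 male ob/ob mice in 7 groups by treatment and day. The authors aligned the reads with STAR and deposited whole-number counts per gene without normalization. Their processing notes name DESeq2 and the build GRCh38, which is a human name for mouse data, and no counting program is given in the sources used here. A second deposited file, of other kind than measurements, holds a preparation code per library. Kits were strand-specific per the study's methods, and whether counting used strand is not stated.

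The 80 genes and all lists were chosen with earlier results of these data known. Library sizes were scaled by TMM, 1 mean was fitted to each of the 7 groups in edgeR 4.0.16 (R 4.3.3), and the low-count filter removed 0 of 14221 genes. Differences were judged by the quasi-likelihood test, adjusted over all genes, with thresholds of 0.05 on the adjusted p and 0.5 on the absolute log2 fold change. Exact permutation tests, two-sided, of the difference in mean log2(CPM + 0.5) were added for single genes. Positions, exon lengths and overlaps came from GENCODE annotation of GRCm38, in which 14183 genes matched by symbol, all 80 members among them. Of the 80, 26 overlap exons of another gene. Of the promoters, 58 of 80 were found in RefSeq. Figures were drawn with matplotlib 3.10.9. Levels were printed most fully for genes with the largest changes on Day 1, those called on Day 5, those with the smallest p-values where none was called, those with opposite signs on Days 1 and 5 and the most abundant of each class. Other called genes are often given by their log2 fold change alone.

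Alternatives were DESeq2 1.42.0 or its size factors, limma 3.58.1 after quantile normalization, no low-count filter, at least 10 counts in every library, each day alone, merged vehicle groups on Day 5, no fold threshold, and fits without the shallowest library of Day 1, the 2 deepest FGF1 libraries of Day 5 or single mice of Days 1 and 42. Simulated data had 200 of 14221 genes changed by 1.5 on the log2 scale on each day. Recovery by edgeR was 99.5% for Day 1, 98% for Day 5 and 100% for Day 42. It also called 5, 6 and 3 unchanged genes on those days. Smaller changes were not simulated, so recovery of them is not known. The labels give 1 mouse per library, so p-values measure the spread between mice. That spread was estimated once per gene over all 47 libraries, so p-values of 1 day also carry the spread of the other days. Fits of each day alone, given below, use that day's spread only. A sum of fibrillar collagens without Col5a3 was added after seeing the data. Library totals and the spread between mice set the precision.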

Additional observations from a re-analysis of the deposited data

Results flagged for a closer look

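Single mice far from the rest of their group were looked for in 18 members and in the 4 class sums, and 12 of 154 groups held one. Chance alone gives about 1 in 20 groups. In FGF1-treated mouse 1 of Day 1, the shallowest library, Col4a3 was highest at 2.44 CPM (next 1.37) and Col4a5 lowest at 6.52 CPM (next 15.8). Itga2 was highest in FGF1-treated mouse 10 of Day 1, at 10.8 CPM (next 6.30). Itgav was highest in vehicle-treated mouse 2 of Day 1, at 65.0 CPM (next 44.0). On Day 5, Itga7 was lowest in FGF1-treated mouse 4 at 10.9 CPM (next 17.6). In the vehicle groups of that day, Itga5 reached 5.23 CPM in non-diabetic mouse 1 (next 3.69), Itgb2 9.76 CPM in non-diabetic mouse 2 (next 4.82) and Col5a3 11.2 CPM in diabetic mouse 7 (next 9.10). The summed level of collagens that are neither fibrillar nor of basement membranes reached 525.8 CPM in diabetic mouse 1 (next 490.9). On Day 42, Col5a3 stood out in FGF1-treated mouse 3 at 14.0 CPM (next 8.39) and in vehicle-treated mouse 5 at 21.1 CPM (next 9.57), and Itga2 in FGF1-treated mouse 1 at 1.05 CPM (next 0.783).

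The FGF1 effect differed between Day 1 and Day 5 for 32 of the 80 genes, beside 8.52% of all genes with a higher and 7.28% with a lower effect on Day 1. In addition to differences given above for Itga5 (4.28), Col5a3 (2.55), Itga2 (2.20), Itga7 (1.89), Col4a3 (-1.11) and Itgbl1 (-1.72), the log2 effect was higher on Day 1 by 1.56 for Col6a1, 1.55 for Col3a1, 1.46 for Col6a3 and for Lama5, 1.20 for Col16a1, 1.13 for Itgav, 1.02 for Itgb2, 0.86 for Itgam, 0.82 for Col18a1 and 0.64 for Itgb1. For Itga9 the difference was -0.55. All of these passed the thresholds in edgeR's quasi-likelihood test with Benjamini-Hochberg adjustment over all genes.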

How the results depend on the processing

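Of the members past the thresholds in any comparison, 81 results in all, none turned its direction in any of the 855 values that the alternatives gave for them. Members short of the thresholds were not followed as a whole. Over all genes the median log2 fold change of Day 1 was 0.01, and -0.04 with DESeq2, and 53.9% of the calls for Day 1 against Day 5 were higher, against 47.9% with DESeq2, 47.5% with its size factors and 48.1% with quantile limma. Requiring at least 10 counts in every library left 40 of the 80 genes in the fit, and 24 then passed on Day 1 (20 higher), 1 on Day 5 against non-diabetic vehicle (Itga10), 3 against diabetic vehicle (Itgb5, Itgam and Col5a2) and 20 for Day 1 against Day 5, beside 14.4%, 1.28%, 2.00% and 12.8% of all genes kept. With both vehicle groups of Day 5 merged, 9 passed on Day 5 and 1 (Col10a1) for Day 5 against Day 42, beside 2.62% and 1.04% of all genes. With each day fitted alone, 6 passed against non-diabetic and 12 against diabetic vehicle, beside 2.60% and 3.90%, and effects could not be compared between days. Without a fold threshold 5 passed against non-diabetic vehicle, beside 4.65%. With quantile normalization and limma, Col4a6 no longer passed against diabetic vehicle (adjusted p = 0.128) and Itga10 against non-diabetic vehicle (adjusted p = 0.212). The cause of these changes was not tested beyond the smaller gene set of the count minimum.

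DESeq2 called 39 genes on Day 1, 3 and 7 on Day 5, 37 for Day 1 against Day 5, beside 19.6%, 1.60%, 2.80% and 16.1% of all genes, and 0 for the other comparisons. Without the shallowest library of Day 1, 29 rose and 11 fell, beside 19.8% of all genes. Leaving out each vehicle-treated mouse of Day 1 gave 38 to 42 genes on Day 1 and 27 to 34 for Day 1 against Day 5, beside 16.4% to 21.7% and 12.8% to 18.0% of all genes. Leaving out each mouse of Day 42 gave 0 to 2 genes on that day, beside 0% to 0.218% of all genes. The 2 (Col10a1 and Col11a1) came without FGF1-treated mouse 1. For Day 5 against Day 42 these fits gave 0 to 1 genes, beside 0.394% to 1.05% of all genes, with Col10a1 passing without vehicle-treated mouse 3 or 5. Col25a1 fell past the fold threshold on Day 1 without vehicle-treated mouse 4 (log2 -0.50). Mice of Day 5 were not left out singly. No paired analysis was possible because separate mice were killed and their numbers follow accession order only. Values of Col10a1 on Day 42 rest on 1 to 14 counts.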

Other observations

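Per kilobase of exon, the order of the 80 genes in vehicle-treated mice of Day 1 began with Itgb1 (28.6 ± 3.79 CPM per kilobase, SD, n = 4) and Col4a2 (17.6 ± 5.22). Col25a1 (11.4 ± 2.52), Col23a1 (10.8 ± 1.81) and Col4a1 (10.1 ± 2.35) followed and differed from each other by less than their SD. The list ended with Itga2 (0.144), Col17a1 (0.0811) and Col10a1 (0.0759). Among laminins in these mice, Lamc1 (4.44 ± 0.269) and Lamb2 (4.14 ± 0.859), the beta chain of mature vessel walls, were highest and differed by less than the SD of Lamb2. The CPM of Lamb2 was 28.3 ± 9.07 with FGF1 and 25.2 ± 5.23 with vehicle on Day 1, 54.2 ± 6.83 with FGF1 against 43.4 ± 4.80 (non-diabetic) and 43.9 ± 6.86 (diabetic) on Day 5, and 19.2 ± 3.31 against 20.8 ± 5.83 on Day 42. None of these differences passed. Col8a2, the highest network collagen, had 7.77 ± 2.75 against 7.46 ± 1.17 CPM on Day 1 and 9.33 to 9.49 CPM in the means of Day 5. Itgb8, a partner of Itgav found on astrocytes, was nearly equal between treatments on Day 1 (45.2 and 46.2 CPM) and higher in the mean of every group of the later days, where day and preparation cannot be told apart.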
